A study of Mus musculus with 12 samples.

Results

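The mitosis and spindle genes are 50 genes chosen by name, whose products condense chromosomes, build the spindle, hold chromosomes to it, time their separation and divide the cell. The choice was made with earlier results of these data known. Of these 50 genes, 45 had a row among the 14143 genes of the deposited table. All 45 passed the filter for testing, which asked for at least 1 FPKM (fragments scaled by transcript length and library total) in at least 3 of the 12 libraries and left 10900 genes. Cenpe, Cenpf, Smc4, Mki67 and Top2a were not analysed here.

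The cells were hematopoietic stem cells (HSCs), the bone marrow cells that feed every blood lineage, from female C57BL6J mice. All 4 groups shared one sort, for Sca-1 and CD117 (c-kit) and against a lineage cocktail, CD48 and CD135, after which CD150 staining split the cells into a low fraction (Ly-HSCs, called lymphoid-biased) and a high fraction (My-HSCs, called myeloid-biased). Young mice were 8 to 10 weeks old per the sample labels and 8 to 12 weeks per the protocol, and old mice were 18 months old. Each of young Ly-HSCs, old Ly-HSCs, young My-HSCs and old My-HSCs gave 3 libraries, which the series' design ties to 3 independent groups of mice, so the spread is that between groups of mice. No treatment or mutant allele is given for any group, and both fraction names rest on surface staining.

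Mitotic genes are transcribed late in the cell cycle. In dividing cells the MuvB complex works with B-MYB and FOXM1 as their activator, in resting cells the same core joins p130 and E2F4 in the repressive DREAM complex, and the factor NF-Y binds many of their promoters. Most adult HSCs rest outside the cell cycle, so transcripts of these genes in a sorted HSC sample are usually read as a sign of its cycling cells. In bulk libraries such as these, fewer cycling cells and less RNA per cell cannot be told apart.

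As a set, the mitosis and spindle genes were lowest in young Ly-HSCs and highest in old Ly-HSCs, with both My-HSC groups between. The mean log2(FPKM + 1) level over the 45 genes was 1.94 ± 0.47 (SD, n = 3) in young Ly-HSCs, 2.64 ± 0.63 for the young and 2.99 ± 0.48 for the old My-HSC group, and 3.49 ± 0.50 for old Ly-HSCs. By library it was 1.40, 2.29 and 2.14 in the young Ly-HSC group against 3.86, 3.70 and 2.93 in the old one. The My-HSC libraries read 1.92, 3.08 and 2.94 when young, then 3.53, 2.81 and 2.63 when old. The old Ly-HSC libraries lay above all young Ly-HSC libraries, while the other neighbouring groups overlapped. Over all 10900 tested genes the same mean differed much less, from 3.30 ± 0.16 to 3.58 ± 0.06 with age in Ly-HSCs and from 3.50 ± 0.07 to 3.63 ± 0.04 in My-HSCs. Of the 45 genes, 38 had their highest group mean in old Ly-HSCs, against 21.4% of tested genes, and 31 their lowest in young Ly-HSCs, against 37.2%. The genes' own spread was wide: the median SD of log2 values within young Ly-HSCs was 1.23 for these genes and 0.68 for all tested genes.

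**Figure D1:**
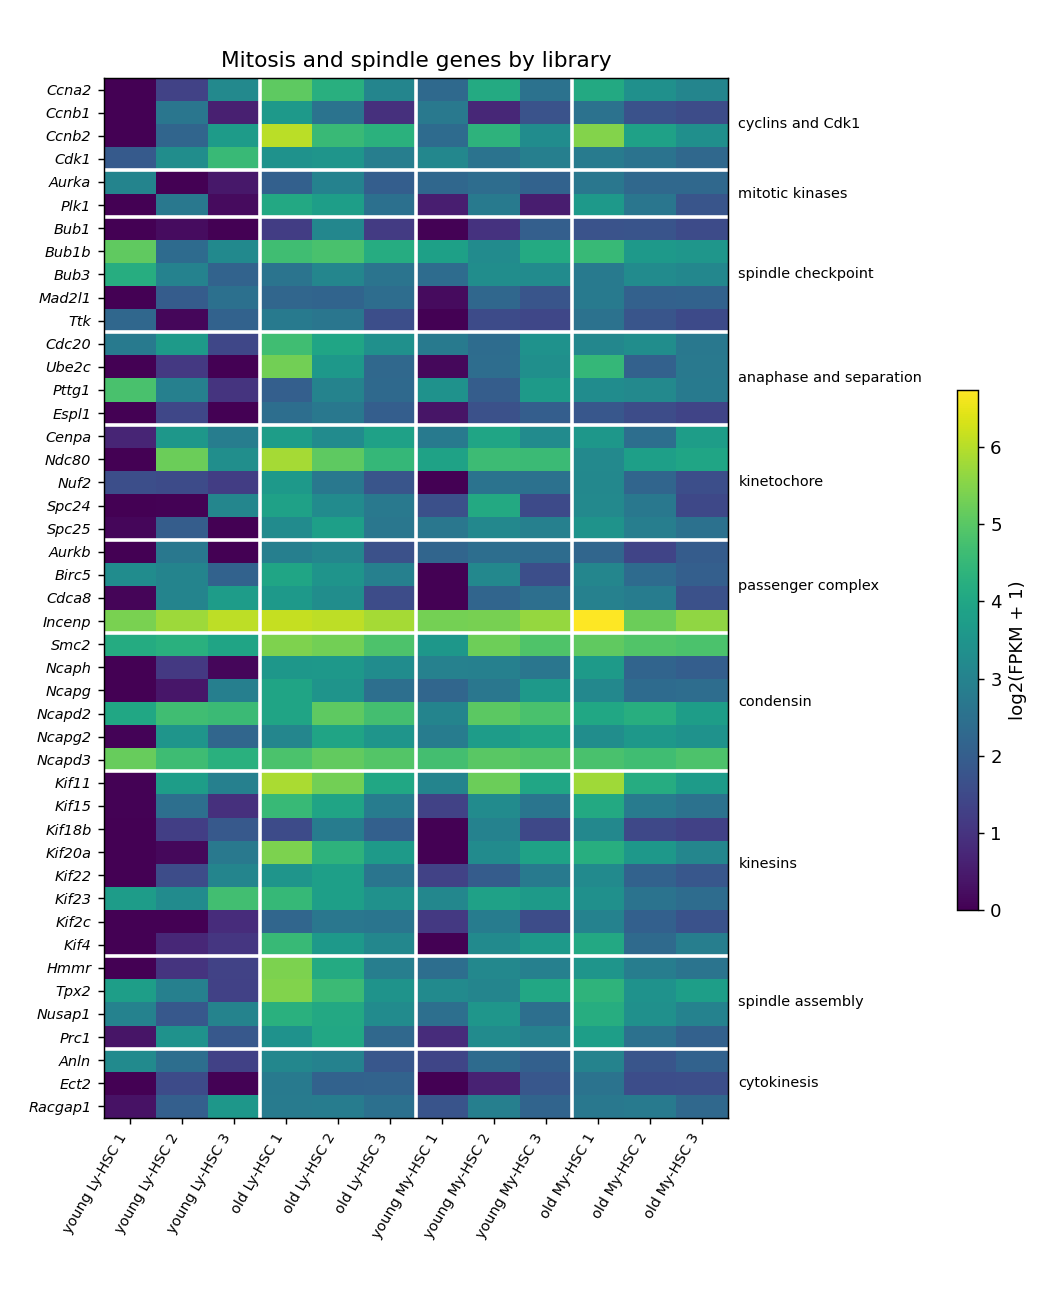
The 45 mitosis and spindle genes (rows, grouped by role) in 12 libraries (columns), coloured by log2(FPKM + 1). The first young Ly-HSC library holds 20 of the 45 genes at 0, and no old library holds any. Of all tested genes, 15.7% are at 0 in that young library and from 0.303% to 4.91% in the old libraries.

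**Figure D2:**
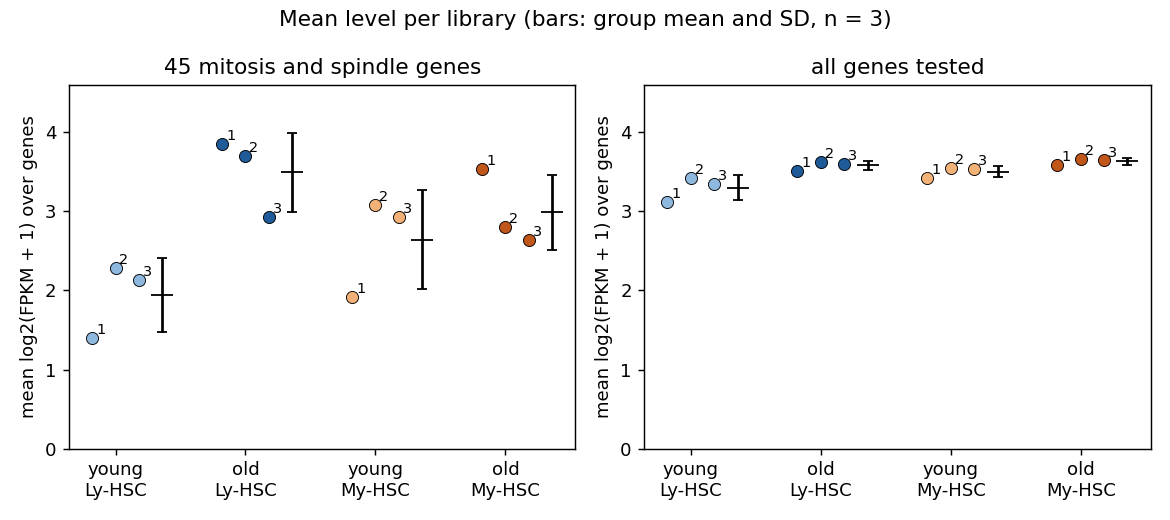
Mean log2(FPKM + 1) per library over the 45 mitosis and spindle genes (left) and over all tested genes (right); points are libraries with their numbers, and bars are group means with SD (n = 3). The left panel spans 1.40 to 3.86 and its old Ly-HSC points lie above all young Ly-HSC points, while the right panel is nearly flat.

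Many of these genes were near or at 0 in single young libraries. Libraries 1, 2 and 3 of young Ly-HSCs listed 20, 2 and 5 of the 45 at 0, and those of young My-HSCs 7, 0 and 0. No old library listed any of them at 0. Library 1 of young Ly-HSCs stood apart in this, with 44.4% of the mitosis and spindle genes and 15.7% of all tested genes at 0. In young Ly-HSC libraries 2 and 3, 4.44% and 11.1% of these genes and 6.18% and 9.29% of all tested genes were at 0. In the young My-HSC libraries it was 15.6%, 0% and 0%, against 7.31%, 2.72% and 2.22%. The old libraries held from 0.303% to 4.91% of all tested genes at 0. An exact 0 in a table without counts may be a missed transcript, so each library's value is given. Read totals are not known: in each library at most 69 genes had low values in whole-number ratios, which did not settle relative depth, and the FPKM columns summed to between 211455 and 228391.

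The libraries carried the stem cell genes the sort implies. Of 12 HSC markers, 10 had a row. Their summed level was lowest in old Ly-HSCs, the group with the highest mitotic level, at 399, 453 and 412 FPKM, against 457 to 580 FPKM in the other 9 libraries; its part in the mitotic levels was not tested. Slamf1, which encodes CD150, stood at 4.87, 1.39 and 1.704 FPKM in young and 1.78, 8.33 and 6.47 FPKM in old Ly-HSCs, below all My-HSC libraries at 33.96, 20.9 and 15.01 FPKM in young and 26.4, 35.3 and 30.96 FPKM in old cells. Granulocyte genes stood out in the first library of both old groups: the 5 of 12 listed granulocyte markers with a row summed to 316, 26.3 and 29.7 FPKM in old Ly-HSCs and 278, 33.3 and 28.2 FPKM for the old My-HSC libraries. The young Ly-HSC libraries had 0.369, 15.4 and 44.99 FPKM, and the young My-HSC ones 0.0247, 7.18 and 6.21 FPKM. The 7 of 12 listed erythroid markers with a row were also highest there, at 110.8 FPKM in old Ly-HSC library 1 and 85.2 FPKM in old My-HSC library 1, against 9.51 to 42.1 FPKM in the other libraries. So were the 5 of 8 listed multipotent progenitor markers with a row, at 68.1 and 30.8 FPKM against 0.571 to 26.7 FPKM elsewhere; of these sums Fcgr3, a myeloid Fc receptor, made up 51.8 and 23.4 FPKM. Both libraries had the highest mitotic level of their groups. The share of these cells' RNA in the mitotic gene levels was not tested, and results are given below with and without these libraries.

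Age in Ly-HSCs was the comparison in which mitotic genes differed most. The limma test, two-sided and on log2(FPKM + 1), called 2 of the 45 at an adjusted p under 0.05 (Benjamini-Hochberg over 10900 genes), both higher in old cells, where 0.339% of all tested genes were called higher. These were Ncaph, the kleisin subunit that closes the condensin I ring around chromosomes, and Hmmr, a microtubule-binding protein of the spindle that is also known as a hyaluronan receptor. Of all 45, 43 lay higher in old Ly-HSCs with a median log2 fold change of 1.38, against 62.4% of tested genes and a median of 0.18. At an unadjusted p under 0.05, 25 were higher and 0 lower (10.2% of tested genes higher), and 16 were higher in all old than in all young libraries (11.5% of tested genes). The genes were chosen with earlier results of these data known, so these shares are description and not independent support. Bub3 and Pttg1 had negative fold changes, and Cdk1 and Kif23 stood within 0.03 of 0.

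Ncaph (ENSMUSG00000034906.15, GRCm38 chr2:127103809-127133954, minus strand) stood at 0, 1.17 and 0.0893 FPKM in the young and 10.9, 11 and 8.78 FPKM in the old libraries. All old values exceeded all young values by a wide margin, and the log2 fold change was 3.07 ± 0.53 (SE; 8.39-fold on the log2(FPKM + 1) scale; limma adjusted p = 0.0345). Hmmr (ENSMUSG00000020330.16, GRCm38 chr11:40701395-40733422, minus strand) stood at 0, 1.02 and 1.51 FPKM in the young and 41.7, 16.5 and 6.45 FPKM in the old libraries. Its old libraries differed among themselves, with library 1 above the others, yet the lowest old value was still above the highest young one, with a log2 fold change of 3.37 ± 0.62 (10.3-fold on the same scale; limma adjusted p = 0.0437). Both calls depended on single libraries. Without old Ly-HSC library 1 the adjusted p rose to 0.136 for Ncaph and 0.185 for Hmmr, without old Ly-HSC library 2 to 0.169 and 0.181, and neither was called, although the log2 fold changes stayed at 3.02 and 2.73 and at 3.02 and 3.38. Both calls were also lost without young or old My-HSC library 2 or 3 (limma adjusted p from 0.0588 to 0.0883). Those libraries lie outside the comparison and enter through the shared spread and the filter. Ncaph alone lost its call without old Ly-HSC library 3. Hmmr alone lost it without library 1 of young Ly-HSCs, young My-HSCs or old My-HSCs. Calls over the whole table grew from 38 to 59, 224 and 110 without young Ly-HSC library 1, 2 or 3. They fell, to between 7 and 33, without any single library of the other groups. Without young Ly-HSC library 2, 6 mitotic genes were called (Aurkb, Hmmr, Kif15, Ncaph, Ndc80 and Spc25), where 1.94% of tested genes were called higher. Without young Ly-HSC library 3, 4 were called (Ccna2, Hmmr, Ncapg and Ncaph), where 0.985% of tested genes were.

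**Figure D3:**
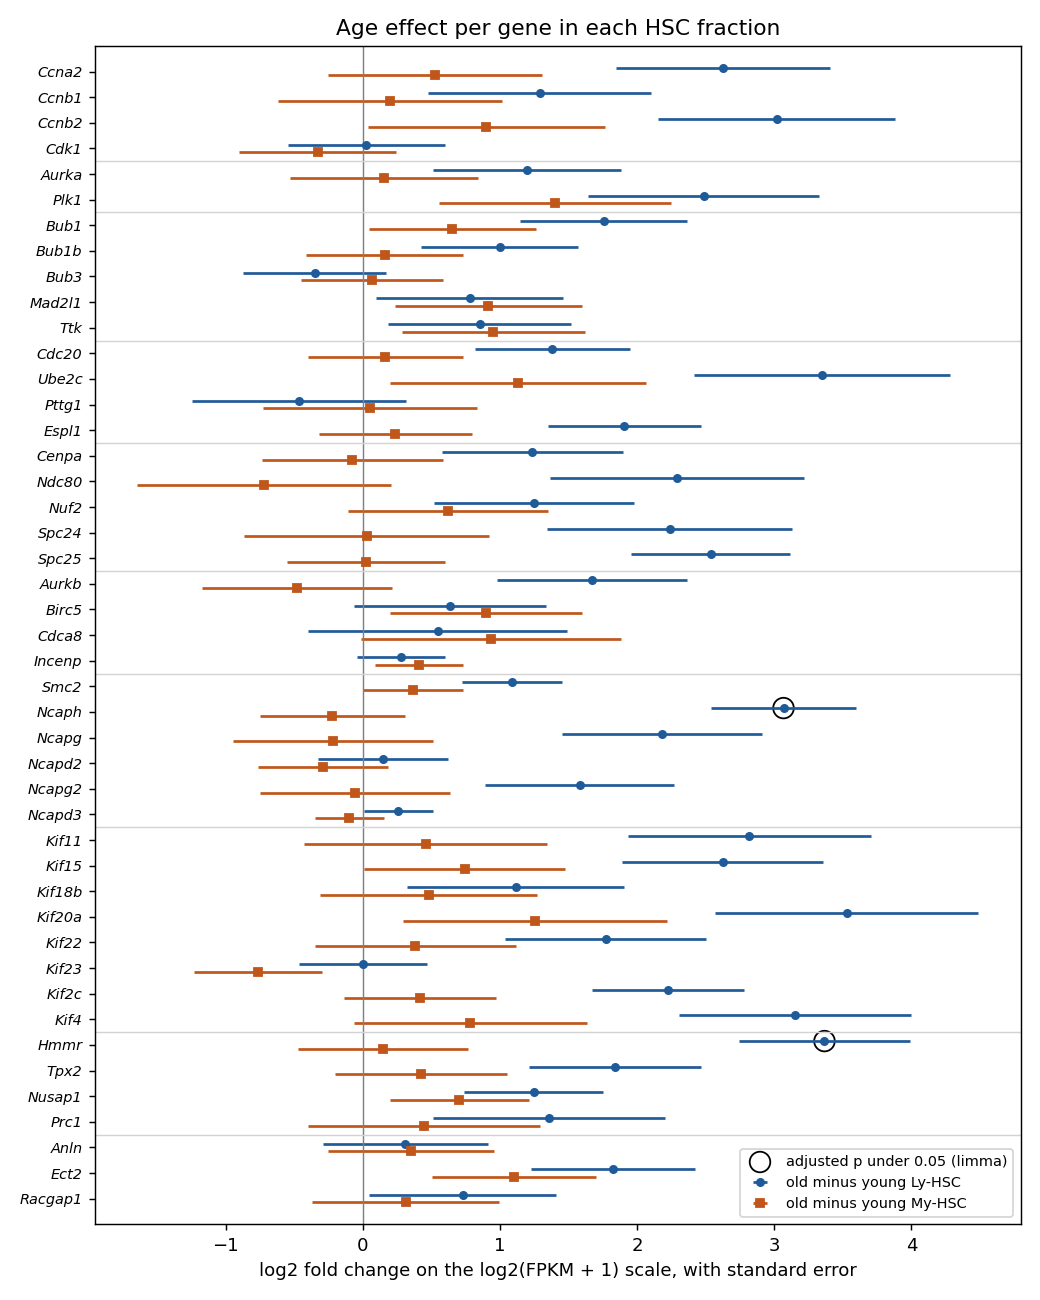
Log2 fold change with age of each of the 45 genes in Ly-HSCs (circles) and My-HSCs (squares), on the log2(FPKM + 1) scale, with limma standard errors; rings mark an adjusted p under 0.05. Most Ly-HSC points lie right of 0, up to 3.53, and the My-HSC points lie nearer to 0; only Ncaph and Hmmr in Ly-HSCs carry a ring.

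The promoters of these genes shared sequence features that played no part in choosing them. RefSeq promoter windows (GRCm38.p6, from 250 bases before to 50 bases after the start) matched 39 of the 45 genes by symbol, with 43 windows in all; Aurkb, Ccna2, Incenp, Kif20a, Spc24 and Tpx2 had no entry. The motifs searched, on both strands, were TTTGAA, the core of the cell cycle homology region that MuvB binds, its variant TTCGAA, the NF-Y element CCAAT, and the E2F-type elements TTTCCCGC and TTTGGCGC. TTTGAA was found in 31 of the 39 genes (79.5%), against 14.1% of the 8555 tested genes with a window and 17.9% of all 32851 windows. Close to the start, with the match beginning from -50 to 49 where 0 is the first transcribed base, it was found in 28 of 39 genes (71.8%), against 3.71% of tested genes and 4.94% of all windows. CCAAT was found in 27 of 39 (69.2%), against 43.1% of tested genes and 37.4% of windows, and 25 genes had both. TTCGAA, TTTCCCGC and TTTGGCGC were each found in 2 genes (5.13%), against 2.64%, 2.45% and 1.11% of tested genes and 1.56%, 1.07% and 0.514% of windows. These are matches of letters, not measured binding, and no match says only that the letters are not in that window.

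Of the genes with TTTGAA and full values below, the 5 with the smallest unadjusted p for age in Ly-HSCs show the arrangement. Capitals mark TTTGAA and CCAAT, or their reverse complements TTCAAA and ATTGG when the motif lies on the other strand, and each sequence reads 5′ to 3′ on the gene's strand.
Hmmr, chr11:40733388-40733687, minus strand: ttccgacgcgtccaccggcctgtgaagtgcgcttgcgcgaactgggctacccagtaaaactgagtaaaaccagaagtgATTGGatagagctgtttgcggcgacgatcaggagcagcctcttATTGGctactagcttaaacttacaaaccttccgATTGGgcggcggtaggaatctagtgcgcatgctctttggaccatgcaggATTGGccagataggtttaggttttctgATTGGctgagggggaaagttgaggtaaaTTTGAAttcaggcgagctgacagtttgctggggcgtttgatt
Spc25, chr2:69206164-69206463, minus strand: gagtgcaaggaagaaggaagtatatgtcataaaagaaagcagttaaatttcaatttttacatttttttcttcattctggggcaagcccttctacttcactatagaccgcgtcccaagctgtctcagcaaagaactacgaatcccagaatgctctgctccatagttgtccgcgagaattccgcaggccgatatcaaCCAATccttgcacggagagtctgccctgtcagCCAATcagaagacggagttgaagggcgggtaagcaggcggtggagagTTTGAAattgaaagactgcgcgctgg
Kif2c, chr4:117178723-117179022, minus strand: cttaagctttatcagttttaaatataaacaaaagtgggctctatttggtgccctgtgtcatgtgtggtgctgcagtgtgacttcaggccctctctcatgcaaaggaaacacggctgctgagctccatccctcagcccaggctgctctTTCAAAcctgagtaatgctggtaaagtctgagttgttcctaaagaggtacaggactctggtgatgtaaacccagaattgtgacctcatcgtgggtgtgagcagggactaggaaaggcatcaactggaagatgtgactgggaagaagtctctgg
Ube2c, chr2:164769679-164769978, plus strand: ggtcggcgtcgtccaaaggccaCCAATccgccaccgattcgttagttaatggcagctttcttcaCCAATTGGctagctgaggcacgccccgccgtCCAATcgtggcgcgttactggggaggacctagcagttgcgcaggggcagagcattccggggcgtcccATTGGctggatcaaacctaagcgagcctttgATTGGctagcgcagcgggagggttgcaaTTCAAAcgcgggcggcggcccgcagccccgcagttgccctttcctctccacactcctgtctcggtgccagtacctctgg
Ccnb2, chr9:70421505-70421804, minus strand: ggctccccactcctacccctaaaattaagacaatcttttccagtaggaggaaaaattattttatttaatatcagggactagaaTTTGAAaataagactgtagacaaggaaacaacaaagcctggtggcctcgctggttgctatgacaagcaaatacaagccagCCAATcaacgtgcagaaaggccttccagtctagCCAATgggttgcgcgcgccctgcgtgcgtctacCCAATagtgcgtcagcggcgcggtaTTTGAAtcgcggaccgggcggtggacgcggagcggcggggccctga

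Hmmr had TTTGAA at position 8, just inside the transcript, and 5 CCAAT matches on the other strand from -172 to -20. Spc25 had TTTGAA at 24 with CCAAT at -55 and -23, and Ccnb2 had it at 4, and again at -167, with CCAAT at -87, -54 and -21. Ube2c carried its match on the other strand at -29 and CCAAT on both strands, of which 1 pair overlaps. The Kif2c window differed, with 1 match far upstream at -103 and no CCAAT; it lies inside the annotated gene, and the stretch after its start was not found in the GENCODE M21 transcripts of Kif2c. Across the 43 windows, 31 of 42 TTTGAA matches began from -50 to 49, and 44 of 64 CCAAT matches from -100 to -1. In the age comparison of Ly-HSCs the median log2 fold change was 1.48 for the 28 genes with TTTGAA near the start. It was 1.25 for the 11 genes without it and 2.04 for the 6 genes with no window. At an unadjusted p under 0.05, 16 of the 28, 4 of the 11 and 5 of the 6 were higher, against 10.2% of tested genes. The differences between these sets were not tested. Ncaph, the other called gene, was among the 6 genes whose windows held none of the motifs searched.

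**Figure D4:**
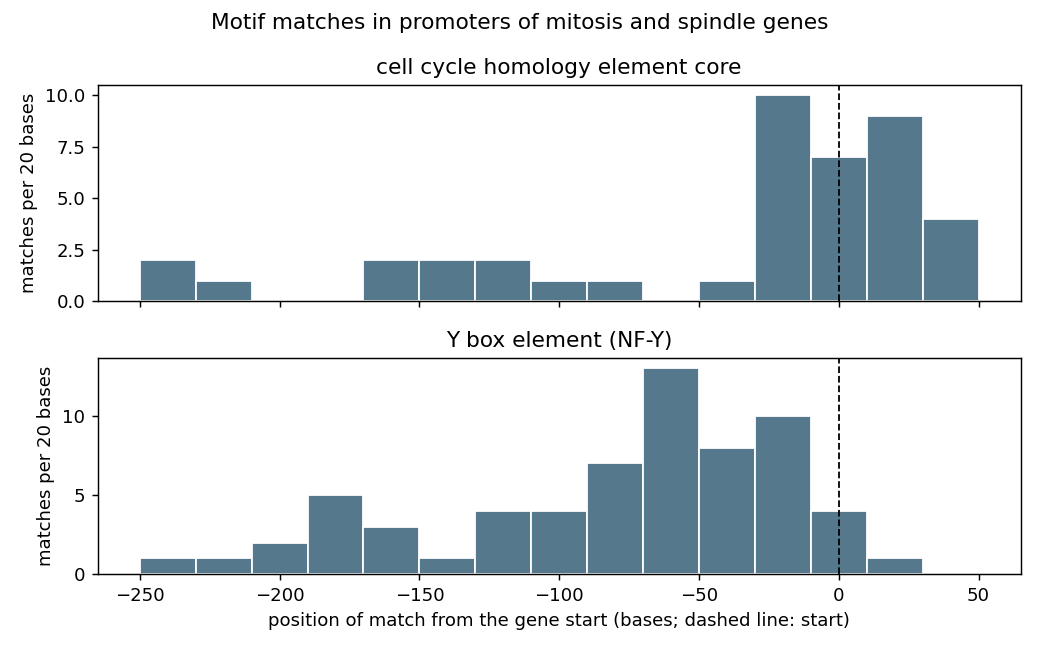
Start positions of matches to the cell cycle homology element core (top, 42 matches) and the Y box element bound by NF-Y (bottom, 64 matches) in 43 promoter windows of mitosis and spindle genes, in bins of 20 bases from the gene start (dashed line). The former gather around the start and the latter just before it.

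Among the cyclins and their kinase, the cyclins lay higher in old Ly-HSCs and the kinase did not. Ccnb2, cyclin B2, which activates Cdk1 for entry into mitosis, stood at 0, 3.55 and 11.9 FPKM in the young and 64.8, 22.9 and 18.9 FPKM in the old libraries, with no overlap and a log2 fold change of 3.02 ± 0.87 (limma adjusted p = 0.173). Ccna2, cyclin A2 of S phase and early mitosis, had 2.62 ± 0.78 (limma adjusted p = 0.188) and Ccnb1, cyclin B1, 1.29 ± 0.81 (limma adjusted p = 0.505). Cdk1 stood at 2.77, 8.84 and 22.6 FPKM in the young and 9.91, 10.4 and 6.42 FPKM in the old libraries. Its highest value of all 12 libraries was in young Ly-HSC library 3, and its log2 fold change was 0.03 ± 0.57.

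The mitotic kinase Plk1, which acts at centrosomes, kinetochores and the cleavage site, stood at 0, 5.498 and 0.143 FPKM in the young and 15.8, 12.7 and 4.66 FPKM in the old libraries (log2 fold change 2.49 ± 0.84, limma adjusted p = 0.234). Young library 2 overlapped the old range and the other 2 young libraries were near 0. Aurka, the Aurora kinase of centrosomes and spindle poles, ran from 0 to 7.26 FPKM over the young and from 3.04 to 6.89 FPKM over the old libraries (1.20 ± 0.69, limma adjusted p = 0.464).

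The spindle checkpoint, which holds anaphase until all kinetochores are attached, was mixed. Bub1, a kinetochore kinase of the checkpoint, was barely detected in young Ly-HSCs and stood at 0, 0.163 and 0 FPKM in the young and 1.32, 7.63 and 1.24 FPKM in the old libraries (log2 fold change 1.76 ± 0.61, limma adjusted p = 0.238). Bub1b, which encodes BubR1, a part of the inhibitor of Cdc20, was the most abundant of the 5 over all libraries and stood at 33.1, 4.104 and 8.16 FPKM in the young and 24.5, 26.7 and 16.99 FPKM in the old libraries. Its highest value of all 12 libraries was in young Ly-HSC library 1, the library with most zeros, and the groups overlapped. Ttk, the kinase Mps1 that starts checkpoint signalling, had 0.85 ± 0.67, Mad2l1, another part of the inhibitor, 0.78 ± 0.68, and Bub3, which tethers Bub1 and BubR1, -0.35 ± 0.52.

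Genes of anaphase, in which the anaphase-promoting complex marks securin and cyclin B for destruction, were split. Ube2c, the ubiquitin-conjugating enzyme of that complex, stood at 0, 1.18 and 0 FPKM in the young and 38.8, 11.1 and 3.81 FPKM in the old libraries, with no overlap (log2 fold change 3.35 ± 0.93, limma adjusted p = 0.162). Its old libraries differed widely, from 3.81 FPKM in library 3 to 38.8 FPKM in library 1. Cdc20, the activator of the complex, stood at 5.91, 11.7 and 1.71 FPKM in the young and 24.5, 14.7 and 9.495 FPKM in the old libraries and overlapped (1.38 ± 0.57, limma adjusted p = 0.326). Espl1, the protease separase that cuts cohesin, was at 0, 1.69 and 0 FPKM in the young and 3.06 to 5.51 FPKM in the old libraries (1.91 ± 0.56, limma adjusted p = 0.178). Pttg1, securin, the inhibitor of separase, lay the other way at -0.47 ± 0.78, with 26.9 FPKM in young library 1.

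At the kinetochore, the site where microtubules grip the chromosome, all 5 genes with a row lay higher in old Ly-HSCs, with 0 called. Spc25, a subunit of the Ndc80 complex that binds microtubules, stood at 0.0886, 2.997 and 0 FPKM in the young and 8.57, 12.9 and 5.39 FPKM in the old libraries, with no overlap, and was the uncalled mitotic gene nearest to the threshold (log2 fold change 2.54 ± 0.58, limma adjusted p = 0.0992). Ndc80, the subunit that contacts the microtubule, was the most abundant and stood at 0, 36.8 and 8.99 FPKM in the young and 56.5, 32.9 and 21.6 FPKM in the old libraries; young library 2 lay inside the old range (2.29 ± 0.93, limma adjusted p = 0.318). Nuf2, its partner, did not overlap between the ages, at 2.095, 1.899 and 1.32 FPKM in the young and 11.6, 5.49 and 2.42 FPKM in the old libraries (1.25 ± 0.73, limma adjusted p = 0.472). Spc24 had 2.24 ± 0.89, and Cenpa, the histone H3 variant that marks the centromere, 1.24 ± 0.66.

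The chromosomal passenger complex, which corrects faulty attachments and prepares cytokinesis, showed smaller differences. Its kinase Aurkb stood at 0, 5.44 and 0 FPKM in the young and 6.54, 7.61 and 2.21 FPKM in the old libraries (1.67 ± 0.69, limma adjusted p = 0.331), with young library 2 within the old range. Its scaffold Incenp was the most abundant of all 45 genes and was steady at 40.9, 53.02 and 65.8 FPKM in the young and 69.97, 65.7 and 56.5 FPKM in the old libraries (0.28 ± 0.32, limma adjusted p = 0.739). Birc5, survivin, had 0.64 ± 0.70 and Cdca8, borealin, 0.55 ± 0.95, and the ages overlapped in both.

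In condensin, which compacts chromosomes, the subunits differed among themselves. Besides Ncaph, Smc2, the ATPase shared by condensin I and II, stood at 16.6, 18.4 and 14.2 FPKM in the young and 42.03, 38.5 and 28.3 FPKM in the old libraries, with no overlap (1.09 ± 0.36, limma adjusted p = 0.228). Ncapg of condensin I was at 0, 0.337 and 6.54 FPKM in the young and 14.4, 10.2 and 4.47 FPKM in the old libraries (2.18 ± 0.73, limma adjusted p = 0.227) and overlapped through young library 3. Ncapd2, the third regulatory subunit of condensin I, had 0.15 ± 0.47. Of condensin II, Ncapg2 had 1.58 ± 0.69, and Ncapd3 was the steadiest of the 45 genes over the 12 libraries, between 18.3 and 35.1 FPKM, with 35.1, 24.2 and 18.3 FPKM in young and 27.3, 33.6 and 29.9 FPKM in old Ly-HSCs (0.26 ± 0.25).

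The mitotic kinesins, motors that slide or shorten spindle microtubules, had a median log2 fold change of 2.43 in Ly-HSCs over 8 genes, of which 6 had an unadjusted p under 0.05 (10.2% of tested genes higher) and 5 did not overlap (11.5% of tested genes). Kif2c, which depolymerises microtubules at centromeres, stood at 0, 0 and 0.808 FPKM in the young and 3.67, 5.42 and 5.200 FPKM in the old libraries (2.23 ± 0.56, limma adjusted p = 0.123). Kif11, Eg5, the motor that pushes spindle poles apart, was the most abundant kinesin and stood at 0.0323, 12.4 and 6.705 FPKM in the young and 57.9, 38.5 and 15.1 FPKM in the old libraries (2.82 ± 0.89, limma adjusted p = 0.201). In both, all old values exceeded all young ones. The central spindle motor Kif20a had the widest fold change, 3.53 ± 0.96 (limma adjusted p = 0.153), from 0, 0.0983 and 5.64 FPKM to 41.96, 19.5 and 11.7 FPKM. Kif4, a chromosome arm motor, had 3.15 ± 0.85 and Kif15, which backs up Eg5, 2.63 ± 0.73, again without overlap. Kif23, the centralspindlin motor of cytokinesis, was the exception, at 12.3, 8.54 and 25.1 FPKM in the young and 21.7, 12.9 and 9.54 FPKM in the old libraries and a log2 fold change of 0.0023 ± 0.47.

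The spindle assembly genes other than Hmmr lay higher by less. Tpx2, which activates Aurora A and nucleates microtubules around chromosomes, stood at 12.7, 6.69 and 1.46 FPKM in the young and 43.1, 23.2 and 10.1 FPKM in the old libraries and overlapped (1.84 ± 0.63, limma adjusted p = 0.235). Nusap1, which bundles microtubules near chromosomes, stood at 6.87, 2.64 and 7.05 FPKM in the young and 18.5, 15.7 and 8.46 FPKM in the old libraries, without overlap (1.25 ± 0.51, limma adjusted p = 0.325). Prc1, which bundles the central spindle, had 1.36 ± 0.85. Of the cytokinesis genes, Ect2, the exchange factor that activates RhoA at the cleavage site, stood at 0, 1.898 and 0.0324 FPKM in the young and 5.899, 3.38 and 3.43 FPKM in the old libraries, without overlap (1.83 ± 0.60, limma adjusted p = 0.215). Racgap1, its centralspindlin partner, was at 0.251, 3.11 and 10.9 FPKM in the young and 6.03, 6.06 and 4.66 FPKM in the old libraries and overlapped (0.73 ± 0.68), as did Anln, anillin of the contractile ring (0.31 ± 0.60).

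**Figure D5:**
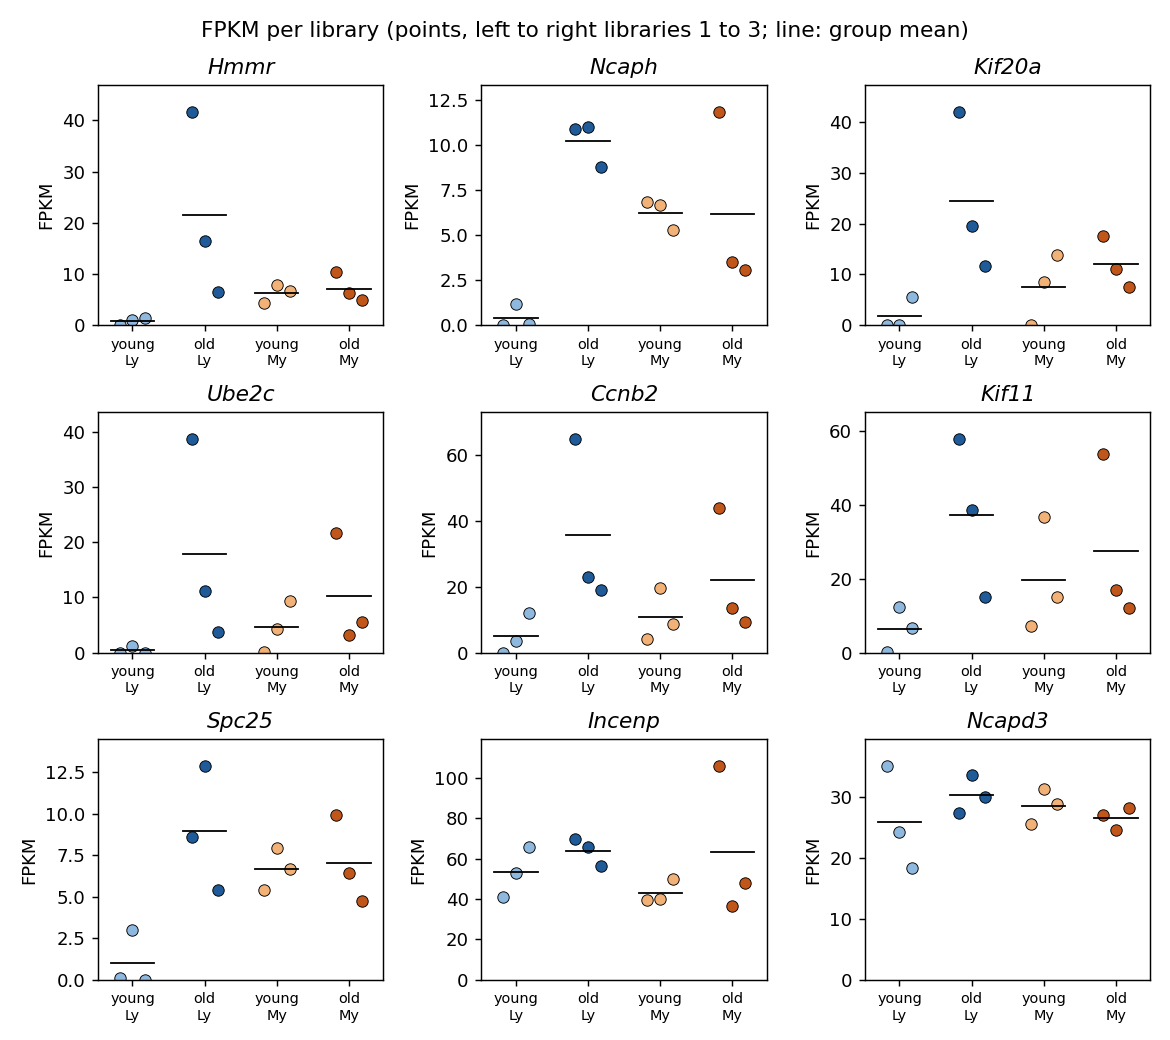
FPKM of 9 mitosis and spindle genes in each library, in order of library number within each group, with lines at group means. In old Ly-HSCs library 1 is the highest for Hmmr (41.7 FPKM), Kif20a, Ube2c, Ccnb2 and Kif11 but not for Ncaph or Spc25, and Ncapd3 and most Incenp values stay level.

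The higher level of the set in old Ly-HSCs kept its direction under other scalings of the libraries, at a smaller or larger size. With quantile normalization, which gives all libraries one distribution, the median over all tested genes moved from 0.18 to -0.0091 and the share of genes lying higher in old Ly-HSCs from 62.4% to 49.4%. The mitotic genes then had 38 of 45 higher with a median of 0.99, and 0 were called. Without library 1 of every group, which leaves out the library with 20 zeros and both libraries with high granulocyte genes, 41 of 45 lay higher, the mean difference was 1.10 in place of 1.55, and 0 were called.

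Age in My-HSCs gave no called mitotic gene. Limma called 0 of 45, where 0.211% of all tested genes were called, 0.193% higher and 0.0183% lower. At an unadjusted p under 0.05, 0 of the 45 were higher and 0 lower, against 5.06% and 2.16% of tested genes. Of the 45, 35 lay higher in old My-HSCs, with a median log2 fold change of 0.37 (all tested genes: 55.8% higher, median 0.07). In none of the 45 did the 3 old libraries lie wholly above or below the 3 young ones, which held for 11.3% and 7.8% of tested genes. The adjusted p nearest to the threshold was that of Ect2, whose My-HSC values were 0, 0.567 and 2.52 FPKM when young against 4.92, 2.03 and 2.05 FPKM when old (1.10 ± 0.60, limma adjusted p = 0.786).

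In My-HSCs, the first library of each age set the direction. Young library 1 was the lowest of its group in 35 of 45 genes, against 43.6% of tested genes, and old library 1 the highest of its group in 36, against 37.1%. Without young My-HSC library 1 the difference of the mean log2 level over the 45 genes went from 0.35 to -0.016, without old My-HSC library 1 to 0.076, and without library 1 of every group to -0.29, with 11 of 45 genes higher. Old My-HSC library 1 is one of the libraries with high granulocyte genes; their part in these levels was not tested.

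Single genes show this. Ccnb2 stood at 4.08, 19.6 and 8.71 FPKM in the young and 43.7, 13.4 and 9.24 FPKM in the old libraries, where old library 1 lay above all others and the remaining old values lay among the young ones (0.90 ± 0.87). Ube2c was at 0.103, 4.36 and 9.32 FPKM in the young and 21.7, 3.27 and 5.64 FPKM in the old libraries (1.13 ± 0.93) and Kif11 at 7.17, 36.8 and 14.96 FPKM in the young and 53.7, 17.02 and 11.98 FPKM in the old libraries (0.46 ± 0.89). Plk1 had the largest log2 fold change, 1.40 ± 0.84 (limma adjusted p = 0.843), with 0.4796, 5.81 and 0.442 FPKM at first and 11.4, 5.29 and 2.43 FPKM with age. Young libraries 1 and 3 were low for Plk1 and young library 2 lay within the old range.

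Other My-HSC values pointed both ways. Nusap1 stood at 4.51, 10.6 and 4.52 FPKM in the young and 17.4, 9.49 and 6.94 FPKM in the old libraries (0.70 ± 0.51), Ttk at 0, 1.89 and 1.73 FPKM in the young and 4.799, 2.45 and 1.85 FPKM in the old libraries (0.95 ± 0.67) and Birc5 at 0, 7.91 and 2.08 FPKM in the young and 7.47, 4.13 and 3.09 FPKM in the old libraries (0.90 ± 0.70). Ttk and Birc5 were listed at 0 in young library 1, as was Nuf2, at 0, 4.95 and 4.73 FPKM in the young and 7.901, 3.55 and 2.06 FPKM in the old libraries (0.62 ± 0.73). Smc2 had 10.9, 37.5 and 28.7 FPKM in the young and 33.2, 29.1 and 27.4 FPKM in the old libraries (0.37 ± 0.36), with young library 1 the lowest of all. The most abundant genes of 5 further classes also overlapped. Bub1b stood at 13.3, 8.53 and 16.3 FPKM in the young and 22.3, 11.2 and 10.6 FPKM in the old libraries (0.16 ± 0.57), Cdc20 at 5.84, 4.25 and 9.88 FPKM in the young and 7.63, 8.86 and 5.47 FPKM in the old libraries (0.16 ± 0.57), Tpx2 at 8.28, 7.398 and 15.5 FPKM in the young and 19.9, 9.86 and 12.7 FPKM in the old libraries (0.42 ± 0.63), Racgap1 at 2.35, 6.49 and 3.49 FPKM in the young and 5.55, 5.79 and 3.87 FPKM in the old libraries (0.31 ± 0.68) and Ncapd3 at 25.5, 31.3 and 28.9 FPKM in the young and 26.97, 24.6 and 28.2 FPKM in the old libraries (-0.10 ± 0.25). Bub1, low in every My-HSC library, was at 0.0347, 0.966 and 3.104 FPKM in the young and 2.28, 2.38 and 1.93 FPKM in the old libraries (0.65 ± 0.61). Without library 1 of every group the log2 fold changes of Ccnb2, Ube2c, Nuf2, Birc5 and Smc2 turned negative, to -0.22, -0.48, -0.64, -0.19 and -0.21, as did those of Kif11 (-0.68), Spc25 (-0.35), Hmmr (-0.32), Kif2c (-0.30) and Bub1b (-0.11).

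Both genes called in Ly-HSCs overlapped between the ages in My-HSCs. Hmmr stood at 4.39, 7.87 and 6.63 FPKM in the young and 10.3, 6.28 and 4.99 FPKM in the old libraries (0.15 ± 0.62), and Ncaph at 6.82, 6.65 and 5.28 FPKM in the young and 11.8, 3.53 and 3.07 FPKM in the old libraries (-0.22 ± 0.53), with 11.8 FPKM in old library 1 and the lowest values in the other 2 old libraries. Spc25 was at 5.43, 7.93 and 6.69 FPKM in the young and 9.94, 6.41 and 4.73 FPKM in the old libraries (0.02 ± 0.58), Ncapg at 3.698, 5.35 and 11.4 FPKM in the young and 7.82, 4.100 and 4.27 FPKM in the old libraries (-0.21 ± 0.73) and Kif2c at 1.17, 6.09 and 1.95 FPKM in the young and 6.903, 3.21 and 2.27 FPKM in the old libraries (0.42 ± 0.56), so these kinetochore, condensin and kinesin genes overlapped as well.

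Of the 45 mitotic genes, 10 had negative log2 fold changes with age in My-HSCs, against 44.2% of tested genes. Among them were 5 of the 6 condensin genes with a row (median of the 6, -0.16). Kif23 stood at 7.75, 13.5 and 11.7 FPKM in the young and 9.54, 4.98 and 4.198 FPKM in the old libraries (-0.76 ± 0.47, limma adjusted p = 0.844), and Ndc80 at 13.7, 23.6 and 23.2 FPKM in the young and 8.01, 13.01 and 14.6 FPKM in the old libraries (-0.72 ± 0.93). Aurkb was at 3.59, 4.396 and 4.18 FPKM in the young and 3.64, 1.62 and 2.904 FPKM in the old libraries (-0.48 ± 0.69). The ages overlapped in all 3 of these genes. Incenp stood at 39.5, 40.05 and 49.9 FPKM in the young and 106, 36.7 and 47.98 FPKM in the old libraries, where old library 1 held the highest value of the 45 genes over the 12 libraries.

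The age effects of both fractions were compared by the interaction, which subtracts the Ly-HSC log2 fold change from the My-HSC one. Limma called 0 of 45 mitotic genes and 0% of the 10900 tested genes. At an unadjusted p under 0.05, 7 of the 45 were negative, meaning a smaller age effect in My-HSCs, against 3.66% of tested genes, and 0 were positive, against 1.99%. The count of 7 ranged from 3, without old Ly-HSC library 2 or either second My-HSC library, to 13, without young My-HSC library 1, and was 13 with the block described below. The estimate was negative in 37 of 45 genes, against 57.2% of tested genes, and its median was -1.09, against -0.12 over all tested genes, and became -0.72 without young Ly-HSC library 1. Ncaph had -3.29 ± 0.75 and Hmmr -3.22 ± 0.88 (limma adjusted p = 0.682 for both), followed by Spc25 at -2.51 ± 0.82, Ncapg at -2.40 ± 1.03 and Kif2c at -1.81 ± 0.79.

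Between the young fractions, mitotic genes lay mostly higher in My-HSCs, with 0 called. Of 45, 35 lay higher in young My-HSCs than in young Ly-HSCs, with a median log2 difference of 0.47 (all tested genes: 59.2% higher, median 0.13). Limma called 0 of them (0.119% of tested genes were called, all higher in My-HSCs), and 6 were higher and 0 lower at an unadjusted p under 0.05 (9.59% and 4.21% of tested genes). Ncaph, Spc25, Hmmr and Kif2c had no overlap between the fractions, 4 of 45, a share close to the 8.97% of tested genes. Ncaph stood at 0, 1.17 and 0.0893 FPKM in young Ly-HSCs and 6.82, 6.65 and 5.28 FPKM in young My-HSCs, a log2 difference of 2.44 ± 0.53 (limma adjusted p = 0.0775). Spc25 was at 0.0886, 2.997 and 0 FPKM and 5.43, 7.93 and 6.69 FPKM (2.22 ± 0.58, limma adjusted p = 0.126), and Hmmr at 0, 1.02 and 1.51 FPKM and 4.39, 7.87 and 6.63 FPKM (2.06 ± 0.62, limma adjusted p = 0.181). Kif2c had 0, 0 and 0.808 FPKM and 1.17, 6.09 and 1.95 FPKM (1.55 ± 0.56), and Ncapg 0, 0.337 and 6.54 FPKM and 3.698, 5.35 and 11.4 FPKM (1.73 ± 0.73), the latter with overlap. Chromosomal passenger genes lay the other way in 3 of 4 cases, with Birc5 at -1.23 ± 0.70. Without young Ly-HSC library 2, 3 mitotic genes were called higher in My-HSCs (Aurkb, Ncaph and Spc25), where 2.26% of tested genes were. The median difference of 0.47 became 0.87 in that fit and 1.08 without young My-HSC library 1, and the number higher at an unadjusted p under 0.05 ranged from 3 to 14 with single libraries left out. The median was 0.40 without young Ly-HSC library 1. With quantile normalization it was 0.25, and 26 of 45 lay higher in young My-HSCs, against 50.6% of tested genes.

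Between the old fractions the order was the opposite, again with 0 called. Of 45, 41 lay lower in old My-HSCs than in old Ly-HSCs, with a median log2 difference of -0.52 (all tested genes: 48% lower, median 0.02). With single libraries left out that median ranged from -0.28 without old Ly-HSC library 1 to -0.93 without old Ly-HSC library 3; it was -0.31 without old My-HSC library 3, -0.33 without old My-HSC library 2 and -0.86 without old My-HSC library 1. Limma called 0 of the 45 (0.0275% of tested genes were called in either direction). At an unadjusted p under 0.05, 1 of the 45, Kif23, was lower, against 1.55% of tested genes. Cdk1, Cdc20, Espl1, Ndc80 and Kif23 were lower in all old My-HSC than in all old Ly-HSC libraries, 5 of 45 against 7.53% of tested genes. Kif23 stood at 21.7, 12.9 and 9.54 FPKM in old Ly-HSCs and 9.54, 4.98 and 4.198 FPKM in old My-HSCs, with a log2 difference of -1.12 ± 0.47, and the nearest libraries of both groups were equal to 3 digits. Ndc80 was at 56.5, 32.9 and 21.6 FPKM and 8.01, 13.01 and 14.6 FPKM (-1.50 ± 0.93), and Cdc20 at 24.5, 14.7 and 9.495 FPKM and 7.63, 8.86 and 5.47 FPKM (-0.98 ± 0.57). Hmmr stood at 41.7, 16.5 and 6.45 FPKM and 10.3, 6.28 and 4.99 FPKM (-1.16 ± 0.62), with overlap through Ly-HSC library 3.

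Old Ly-HSC and My-HSC libraries of the same number varied together, so they were also compared within numbers. In all 3 numbered pairs, 26 of the 45 genes were lower in old My-HSCs, against 16.5% of tested genes, and 2 were higher, against 19.6%. A fit with library number within age as a block called 0 of the 45 and 0 genes of the whole table, where 3 were called without it. At an unadjusted p under 0.05 that fit had 2 of the 45 lower. Of all 10900 tested genes, 462 reached that level in either direction, 286 of them higher. The shared variation shows in the mitotic genes: 23 of 45 were highest in library 1 of both old groups, against 15.4% of tested genes. Ccnb2 is an example, at 64.8, 22.9 and 18.9 FPKM in old Ly-HSCs and 43.7, 13.4 and 9.24 FPKM in old My-HSCs.

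Genes that act beside these in the cell cycle differed less with age. From 10 lists of regulators and partners, 150 genes were tested and limma called 0 in either age comparison. In old Ly-HSCs 110 of 150 lay higher, with a median log2 fold change of 0.41 (all tested genes: 62.4%, median 0.18), and 23 were higher and 2 lower at an unadjusted p under 0.05 (10.2% and 3.06% of tested genes). In old My-HSCs 74 of 150 lay higher with a median of -0.01 (all tested genes: 55.8%, median 0.07). The inner kinetochore list (16 genes, median 1.17) and the E2F and RB list (7 genes, median 1.25) lay nearest to the mitotic genes in Ly-HSCs. Subunits of the anaphase-promoting complex (17 genes, median 0.0068) and the MuvB and DREAM list (13 genes, median 0.01) lay near 0.

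From each list the gene with the smallest unadjusted p for age in Ly-HSCs is given. That choice favours genes that differ with age, so their values do not describe the lists. Most of them paired low young with higher old levels. Cdc25c, the phosphatase that activates Cdk1, was listed at 0 in all 3 young Ly-HSC libraries and stood at 6.004, 7.300 and 2.38 FPKM in the old (limma adjusted p = 0.125). Oip5, which helps to load Cenpa, was likewise listed at 0 in all 3 young libraries against 2.35, 4.38 and 3.39 FPKM in the old ones (limma adjusted p = 0.155). Cdkn2c, the Cdk inhibitor p18, went the same way, at 0, 0 and 0.0367 FPKM in the young and 13.5, 5.73 and 2.505 FPKM in the old libraries (2.79 ± 0.71, limma adjusted p = 0.129). Mybl2, which encodes B-MYB, stood at 0.126, 10.7 and 0.0262 FPKM in the young and 12.7, 14.1 and 10.9 FPKM in the old libraries, where young library 2 lay just below the old values (2.51 ± 0.78, limma adjusted p = 0.197). E2f3, an activating E2F, was at 0.0971, 14.7 and 0.384 FPKM in the young and 6.504, 21.2 and 11.2 FPKM in the old libraries (2.14 ± 0.81), Stil, a centriole duplication factor, at 0.149, 1.23 and 3.003 FPKM in the young and 10.1, 5.36 and 4.35 FPKM in the old libraries (1.73 ± 0.58), and Zwilch of the kinetochore RZZ complex at 0, 0.577 and 7.06 FPKM in the young and 9.81, 8.08 and 6.04 FPKM in the old libraries (1.92 ± 0.72). Sgol1, shugoshin, which guards centromeric cohesin, had 1.69 ± 0.69, and Rfc4 of the replication clamp loader 2.10 ± 0.71. Anapc16, a subunit of the anaphase-promoting complex, lay lower in old cells, at -1.04 ± 0.40 (limma adjusted p = 0.298).

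DNA replication genes, which act in S phase before mitosis, had medians of opposite sign in the fractions, a difference that was not tested for the list. Of 30 tested, 27 lay higher in old Ly-HSCs with a median log2 fold change of 0.47, while 9 lay higher in old My-HSCs with a median of -0.42. Limma called 0 in both comparisons, with 4 higher in Ly-HSCs (10.2% of tested genes) and 1 higher and 6 lower in My-HSCs (5.06% and 2.16%) at an unadjusted p under 0.05. The mitotic genes had medians of 1.38 and 0.37. The latter became 0.07 with quantile normalization and -0.26 without library 1 of every group, where 11 of 45 lay higher. The replication list was not refitted under either alternative.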

How the data were processed

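The authors deposited 1 table of FPKM per gene and library, normalized by length and library total. Per the submitters' processing notes, the tools were bcl2fastq 2.17, STAR and DESeq2 and the build GRCm38 (mm10), with no roles stated; annotation and gene filter are not stated there. Libraries were made with a stranded mRNA kit and read as paired ends, per the labels' protocols. FPKM were analysed as log2(FPKM + 1), which understates the fold changes of low genes. Genes with FPKM of 1 or more in at least 3 of 12 libraries were fitted with limma 3.58.1 in R 4.3.3. The fit had 4 group means with a trended variance (8 residual degrees of freedom), and p-values were adjusted over 10900 genes per contrast. It was tried on simulated data with 200 changed genes and a spread of its own for each group. For old against young Ly-HSCs it called 224 genes, of which 52 were false, more than an adjusted p under 0.05 is meant to allow. It recovered 73 of 100 genes changed by a log2 of 2 and 99 of 100 changed by 4. Calls in that contrast carry this limit. Coordinates are from GENCODE M21 (GRCm38). Gene IDs matched it for 14139 of 14143 genes when versions were ignored.

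The mitosis and spindle genes, the gene lists and the tests were chosen with earlier results of these data known. Full values are given for called genes. They are also given for the genes of each class with the smallest unadjusted p for age in each fraction or the highest mean. The same holds for the 5 genes with the smallest unadjusted p in each other contrast and for the best gene of most lists. Sgol1, Rfc4 and Anapc16, the best genes of their lists, are given without library values. Cdk1, Espl1, Kif20a and others named beside the genes with full values were chosen after their values were seen. Same-numbered old Ly-HSC and My-HSC libraries deviated together (correlations of 0.256, 0.233 and 0.210 across genes), so library numbers were taken as pairs there. Old libraries of unlike number gave 0.106 and 0.075 between libraries 2 and 3. They gave from -0.218 to -0.182 where library 1 was one of them. Young pairs of the same number gave 0.048, 0.0026 and 0.0023. Alternatives varied the pseudocount, filter, scaling, weights, groups in the fit, block and libraries.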

Additional observations from a re-analysis of the deposited data

How the results depend on the processing

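Over 23 alternatives, Ncaph kept its call in old against young Ly-HSCs in 10 (adjusted p from 0.0127 to 0.307, limma) and Hmmr in 5 (adjusted p from 0.0331 to 0.345), with a log2 fold change of at least 2.34 in all 23. The number of mitosis and spindle genes called there went from 2 to 1 with a pseudocount of 0.1, with TPM and with median-of-ratios scaling. It went to 0 with no filter, with quantile normalization, with 1 weight per group, with only the groups compared, with the replicate block and without replicate 1 of every group, and ranged from 0 to 6 when single libraries were left out. Their mean difference, 1.55, became 2.55 with a pseudocount of 0.1, 2.21 with TPM and 1.04 with quantile normalization. The cause was not tested.

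Counts over all genes varied more. In old against young Ly-HSCs, 38 genes were called, against 14 after quantile normalization, 24 when scaled by median ratios, 9 with group weights, 0 with only the groups compared, 15 with the replicate block, 11 without replicate 1 and 7 to 224 without single libraries. In old against young My-HSCs, 23 were called, against 1 with a pseudocount of 0.1 or with TPM, 56 with no filter, 15 with a filter in 6 libraries, 71 with group weights, 36 with only the groups compared, 9 with the replicate block and 0 to 36 without single libraries. Between young fractions, 13 were called, against 22 with a pseudocount of 0.1, 7 with 0.5, 2 with no filter, 0 with group weights or only the groups compared, 4 with the replicate block, 0 with the replicate block by age, 30 without replicate 1 and 0 to 299 without single libraries. Between old fractions, 3 were called, against 1 with a pseudocount of 0.1, 29 with no filter, 8 with quantile normalization, 69 with group weights, 12 with only the groups compared, 1 with the replicate block, 0 with the replicate block by age and 0 to 6 without single libraries. For the interaction, 0 were called, and 6 with no filter.

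Mitotic genes called between young fractions ranged from 0 to 3 without single libraries. Their mean difference there, 0.70, became 0.30 with quantile normalization and 1.36 with a pseudocount of 0.1. For the interaction the mean difference, -1.20, became -1.92 with it, and the 7 genes at an unadjusted p under 0.05 became 13 with the replicate block by age. In My-HSCs the mean age difference, 0.35, turned to -0.016 without young replicate 1 and -0.29 without replicate 1, and ranged from -0.016 to 0.56 without single libraries. Without replicate 1, the log2 fold changes in My-HSCs turned to -0.22 for Ccnb2, -0.48 for Ube2c, -0.64 for Nuf2, -0.19 for Birc5 and -0.21 for Smc2, and without young replicate 1 to -0.23 for Nuf2 and -0.13 for Smc2. Their highest values with a library left out were 1.42, 1.83, 1.06, 1.68 and 0.71, in the same order as the first list. Over all 45 genes and 5 contrasts, 212 of 5265 recomputed log2 fold changes changed sign, of which 72 in the age comparison of My-HSCs, where 33 of 45 genes did so under at least 1 alternative, and 27 in that of Ly-HSCs, where 8 did. Read depth is unknown and limits what a value of 0 can show.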
